A study of Mus musculus with 22 samples.

Results

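Gene expression was compared between tumor and spleen in VHL-deficient CD8+ T cells taken at day 7. Of the 22 RNA sequencing libraries of the series, 4 were chosen because their labels name VHL, day 7 and either tumor or spleen, with no further sort into subsets: 2 libraries of tumor-infiltrating cells and 2 of spleen cells. The tested contrast was tumor minus spleen. The same contrast was taken in the wild-type (WT) cells of day 7, with 2 libraries per tissue, and served only to ask whether the difference between tissues differed between genotypes. All 8 libraries came from P14 CD8+ T cells of the C57BL/6 strain, from mice aged 6 to 12 weeks. The sample titles of all 8 end in a letter and the number 2, whose meaning was not stated. P14 cells carry a transgenic T cell receptor specific for a viral glycoprotein peptide presented by class I MHC. The series' design text states 5 mice for each biological replicate, so that each library stands for pooled animals. The label VHL was read as VHL-deficient. The allele, the Cre driver, the tumor line, the event that day 0 marks and the sort gate were not stated in the sources at hand.

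VHL is the substrate-recognition subunit of a ubiquitin ligase that marks hydroxylated HIF alpha subunits for degradation, and cells that lack it accumulate HIF under normal oxygen. HIF activates genes of glucose uptake, glycolysis, lactate export and mitophagy. CD8+ T cells that stay in a tissue usually lower the program that returns them to blood and lymph, which includes the transcription factor KLF2 and the receptor S1PR1. Antigen contact in a tumor induces granzymes, cytokines, NR4A factors and inhibitory receptors.

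Gene-level read totals of the 4 libraries ran between 3375558 and 8744385. Between 31.4% and 42.3% of reads fell on CT010467.1, a gene of ribosomal RNA, and 3.93% to 5.0% came from the mitochondrial genome. Spleen library 1 was the shallowest, with 3375558 reads, and had the highest ribosomal share, 42.3%. Values below are scaled counts, that is, reads divided by a size factor per library, and 1 read equals 0.788 to 2.23 scaled counts. A log2 fold change (log2FC) is a difference of group means of log2(scaled count + 1), tumor minus spleen. The standard error (SE) and the p-value adjusted by the Benjamini-Hochberg method over 14327 genes come from limma, and calls were made below an adjusted p of 0.05. Nothing in the labels ties the replicates to separate transfers or sorts, so p-values reflect only how much these libraries vary, which may be partly technical. In bulk samples like these, fewer cells of a type and less RNA per cell cannot be told apart.

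Vhl (chr6:113623959-113631633, mm10) had 1 and 7 reads in VHL-deficient tumor and 9 and 11 reads in VHL-deficient spleen. In WT cells it had 162 and 60 reads in tumor and 99 and 106 reads in spleen. Every VHL-deficient library lay below every WT library. Between the VHL-deficient tissues, Vhl was at 1.35 and 5.51 scaled counts in tumor and 20.1 and 9.02 in spleen, and the difference did not pass the test (log2FC -1.89, SE 0.80, adjusted p = 0.12). Under 1 of 22 alternatives Vhl was called lower in tumor.

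The T cell label held in all 4 libraries. Of 14 T cell identity genes, 2 were called higher in tumor, 2 lower and 10 neither, where 9.98% of all tested genes were called higher and 5.47% lower. The median log2FC of the 14 was -0.29 against 0.06 over all tested genes. Scaling to the total without ribosomal RNA and mitochondrial genes gave 2 higher and 4 lower, and the lower calls numbered 0 without tumor library 1 or spleen library 1 and 1 without tumor library 2. Cd8a stood at 9308 and 9686 in tumor and 3520.1 and 2884 in spleen (log2FC 1.57, SE 0.37, adjusted p = 0.00601). Cd8b1, the other chain of the CD8 co-receptor, stood at 4487 and 4740.4 in tumor and 16376 and 12749 in spleen (log2FC -1.65, SE 0.44, adjusted p = 0.0133). The chains thus moved in opposite directions, with no overlap between tissues for either, as for every called gene. Zap70, a kinase of the T cell receptor pathway, was higher in tumor (log2FC 1.13, SE 0.24, adjusted p = 0.00282). The adhesion receptor Cd2 was lower (log2FC -1.35, SE 0.32, adjusted p = 0.00625). Cd8a was not called without spleen library 2 (adjusted p = 0.0564). Cd8b1 was not called without tumor library 1 (adjusted p = 0.0949) or tumor library 2 (adjusted p = 0.0638) or spleen library 1 (adjusted p = 0.121). Cd2 was not called without tumor library 1 (adjusted p = 0.0549) or spleen library 1 (adjusted p = 0.0706).

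Several marker lists of other cell types were near the detection limit, and others held genes that T cells also express. The 12 neutrophil markers summed to 4.06 and 11.8 scaled counts in tumor and 0 and 13.1 in spleen, and 6 of them, S100a8 and S100a9 included, had no read in any of the 4 libraries. The 12 macrophage and monocyte markers summed to 37.9 and 64.6 in tumor and 55.9 and 51.7 in spleen, with C1qa and Fcgr1 at no read. Of this list Cd14 was called higher, at 5.41 and 6.30 in tumor and no read in spleen (adjusted p = 0.0302). Cd14 was not called without any 1 of the 4 libraries (adjusted p = 0.0965 to 0.131), nor under 5 of the 17 other alternatives (adjusted p = 0.068 to 0.208). The 8 melanoma markers summed to 27.1 and 25.2 in tumor and 98.3 and 88.6 in spleen, and most of the spleen sum was Pmel. Sox10 and Slc45a2 had no read in any of the 4. The 12 B cell markers summed to 202 and 202 in tumor and 639 and 605 in spleen. The 10 dendritic cell markers summed to 453 and 362 in tumor and 874 and 1172 in spleen. Most of the spleen sum was Itgax, an integrin that activated CD8+ T cells also express, at 139 and 105 in tumor and 615 and 976 in spleen. The 8 NK cell markers summed to 279 and 191 in tumor and 118 and 85.3 in spleen, and Ncr1, Klra8 and Klra9 had no read. The 6 CD4 T cell markers summed to 507 and 479 in tumor and 2155 and 1933 in spleen, nearly all of it Gata3, while Cd4 stood at 24.3 and 22.1 in tumor and 8.94 and 8.204 in spleen. The 9 fibroblast and endothelium markers summed to 306 and 271 in tumor and 226 and 293 in spleen. Of 10 erythroid and platelet markers, 9 were in the data and summed to 6.76 and 15.8 in tumor and 8.94 and 8.204 in spleen. Most of the NK tumor sum was Fcer1g, a signalling adaptor, at 249 and 152 in tumor and 29.1 and 16.4 in spleen (log2FC 3.10, SE 0.89, adjusted p = 0.0222). Fcer1g was not called without any 1 of the 4 libraries (adjusted p = 0.0615 to 0.172), nor under 2 of the 18 other alternatives (adjusted p = 0.0581 to 0.0786). Itgax was not called without spleen library 2 (adjusted p = 0.0509). Of the marker genes, Pmel, Cd79b, Gata3 and Itgax were called lower in tumor, and all but Itgax stayed so in every alternative. The part that other cell types had in the results below was not tested. The nuclear RNA Malat1, which relates to RNA quality, stood at 5405 and 5208 in tumor and 13571 and 8850.1 in spleen (log2FC -1.05, SE 0.43, adjusted p = 0.105). Under 5 of 22 alternatives, all in limma, Malat1 was called lower in tumor (adjusted p = 0.00691 to 0.0252). The scaling without ribosomal RNA and mitochondrial genes was among the 5.

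Tumor and spleen cells differed in 2213 of 14327 tested genes, or 15.4%. Of these, 1430 were higher in tumor, 9.98% of the tested genes, and 783 were lower, 5.47%. The list counts below are to be read against these shares. Among the called genes, 811 were higher and 284 lower by at least 4-fold. For every one of the 2213, both tumor libraries lay on the same side of both spleen libraries, but so did 62.8% of all tested genes, 33.8% with tumor above and 29.0% with tumor below. Tumor library 1 mattered most for the count: without it 876 genes were called, 620 higher and 256 lower. Without tumor library 2 the count was 1274, with 816 higher and 458 lower. Without spleen library 1, the shallow one, it was 981, with 703 higher and 278 lower, and without spleen library 2 it was 1543, with 426 lower. Scaling to the total without ribosomal RNA and mitochondrial genes gave 2213 calls too, but 47.4% of them were higher in tumor, against 64.6% here, and the median log2FC of all tested genes was -0.13 in place of 0.06.

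**Figure D1:**
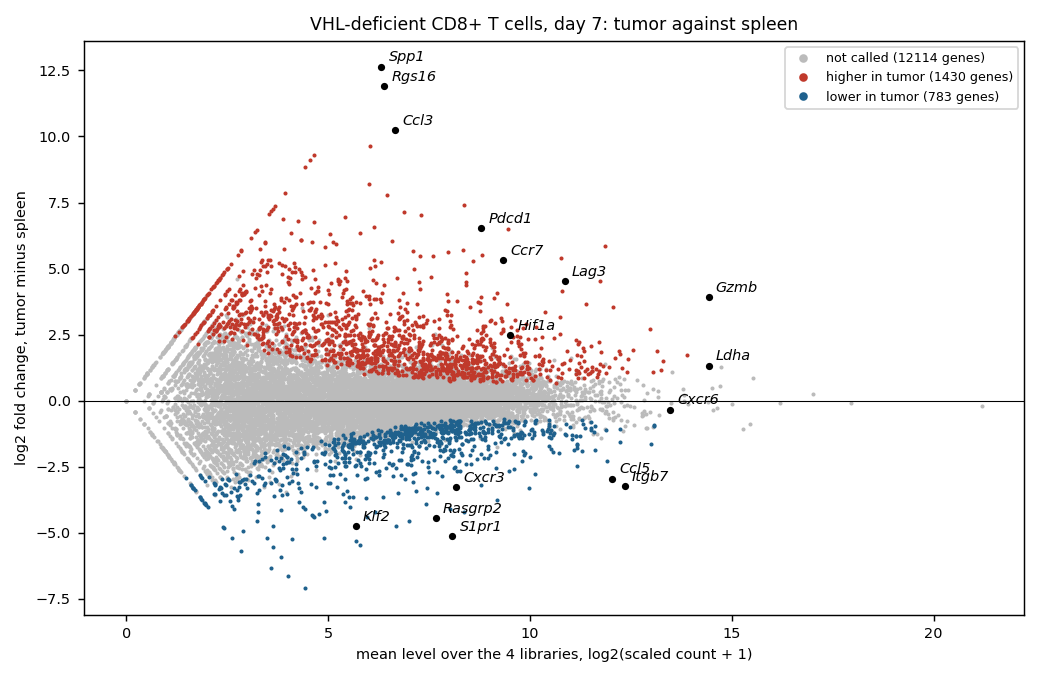
Log2 fold change (tumor minus spleen, y axis) against mean log2(scaled count + 1) over the 4 VHL-deficient day 7 libraries (x axis), 1 point per tested gene; red, called higher in tumor (1430), blue, called lower (783), grey, not called. Spp1, Rgs16 and Ccl3 lie at the top and S1pr1, Rasgrp2 and Klf2 near the bottom, while Cxcr6 lies close to 0.

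The largest decreases among well-expressed genes included receptors and signalling proteins of lymphocyte traffic. Of 13 tested genes of egress and lymph node homing, 10 fell, 2 rose and 1 was not called, with a median log2FC of -1.95. S1pr1 (chr3:115710433-115715072, mm10), the receptor that leads T cells out of tissue along sphingosine-1-phosphate, stood at 28.4 and 69.3 in tumor and 1562 and 1643 in spleen (log2FC -5.14, SE 0.51, adjusted p = 5.55e-07). Klf2 (chr8:72319033-72321656), a transcription factor that activates S1pr1, stood at 5.41 and 14.2 in tumor and 277 and 255 in spleen (log2FC -4.76, SE 0.53, adjusted p = 2.72e-06). Both tumor libraries lay far below both spleen libraries for each gene. The related factor Klf3 stood at 9.47 and 5.51 in tumor and 445 and 300.3 in spleen (log2FC -5.47, SE 0.66, adjusted p = 7.36e-06). S1pr4, another sphingosine-1-phosphate receptor, stood at 783 and 767 in tumor and 3209 and 2808 in spleen (log2FC -1.95, SE 0.27, adjusted p = 4.96e-05). Itgb7, the integrin chain that pairs with alpha 4 or alpha E, stood at 1234 and 2308 in tumor and 15392 and 16572 in spleen (log2FC -3.24, SE 0.47, adjusted p = 7.24e-05).

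Both genes of this group that rose encode chemokine receptors. Ccr7, which guides cells into lymph nodes and lymphatic vessels, stood at 6011 and 2776 in tumor and 91.6 and 114 in spleen (log2FC 5.31, SE 0.52, adjusted p = 5.30e-07). The tumor libraries differed from each other, yet both lay far above either spleen library. Cxcr4 stood at 150.1 and 96.9 in tumor and 17.9 and 38.6 in spleen (log2FC 2.15, SE 0.55, adjusted p = 0.0111). Cxcr4 was not called without tumor library 1 (adjusted p = 0.132) or spleen library 1 (adjusted p = 0.16). A further 3 genes among the 12 largest decreases act in adhesion or small GTPase signalling. Rasgrp2, an exchange factor for Rap1 in integrin activation, stood at 36.5 and 49.6 in tumor and 959 and 935 in spleen (log2FC -4.44, SE 0.37, adjusted p = 5.57e-08). Rap1gap2, which inactivates Rap1, stood at 14.9 and 16.5 in tumor and 322 and 293 in spleen (log2FC -4.21, SE 0.70, adjusted p = 3.06e-04). Lpar6, a lysophosphatidic acid receptor, stood at 55.5 and 103 in tumor and 1649 and 1243 in spleen (log2FC -4.22, SE 0.34, adjusted p = 3.39e-08). The range of tumor values did not touch that of spleen in any of the 3, which the rule that named them required.

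**Figure D2:**
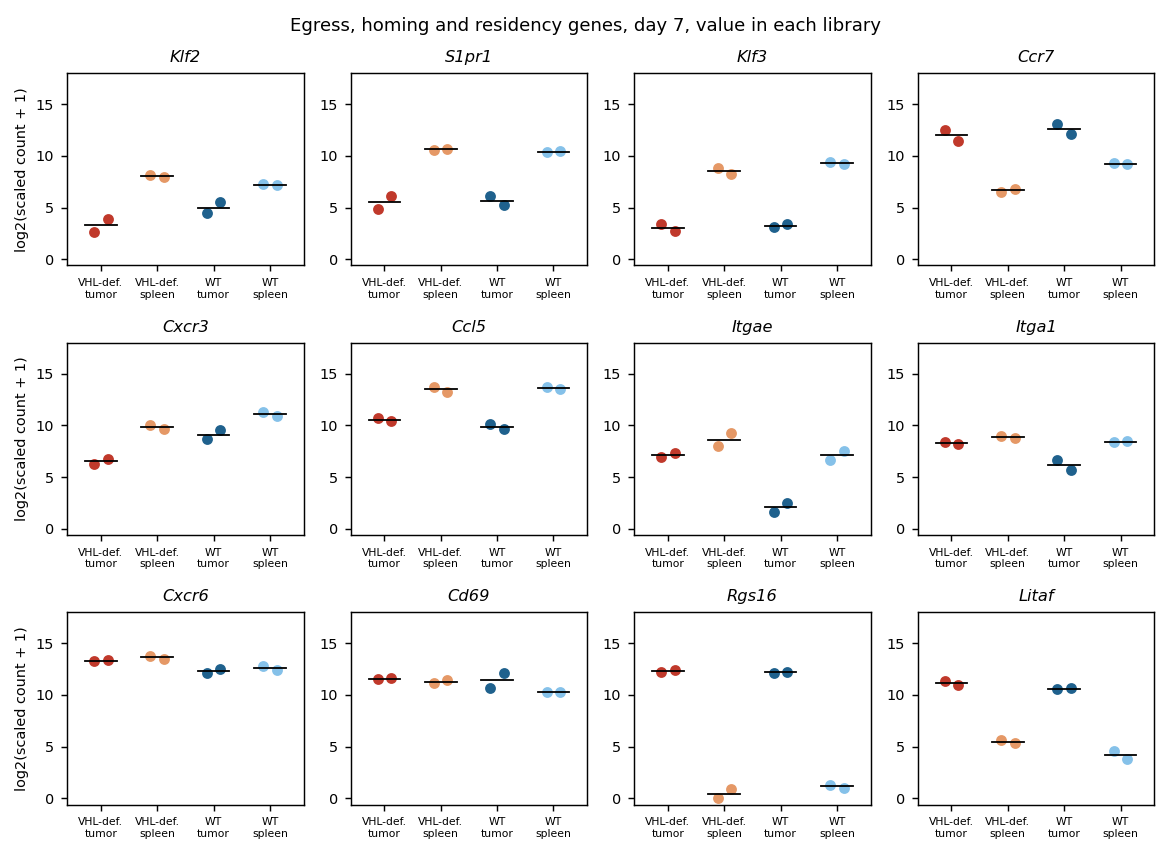
Log2(scaled count + 1) of 12 traffic and residency genes in each library of the 4 day 7 groups; points are libraries (n = 2 a group) and horizontal lines are group means. Klf2, S1pr1, Klf3, Cxcr3 and Ccl5 lie lower and Ccr7, Rgs16 and Litaf higher in tumor than in spleen in the VHL-deficient cells, whereas Cxcr6 and Cd69 differ little.

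The surface markers often used for tissue residency were not called. Itgae, the alpha E integrin chain (CD103), stood at 123 and 159.9 in tumor and 250.3 and 619 in spleen (log2FC -1.48, SE 0.68, adjusted p = 0.153). Cd69, which antagonises S1PR1 at the surface, stood at 3003 and 3180.5 in tumor and 2224 and 2791 in spleen (log2FC 0.31, SE 0.56, adjusted p = 0.765). Itga1 stood at 326 and 298 in tumor and 521 and 447 in spleen (log2FC -0.63, SE 0.46, adjusted p = 0.39). Cxcr6, the receptor for CXCL16, stood at 9805 and 10365 in tumor and 14085 and 11551 in spleen (log2FC -0.34, SE 0.30, adjusted p = 0.501). In a limma fit of the VHL-deficient tumor and spleen groups alone, Itgae (adjusted p = 0.0309) and Itga1 (adjusted p = 0.0449) were called lower. Both tumor libraries lay below both spleen libraries for Itgae, Itga1 and Cxcr6, and above them for Cd69. Of all tested genes, 29.0% lay below in this way and 33.8% above.

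Of the 24 tested genes linked to residency, 13 nevertheless rose, none fell and 11 were not called, with a median log2FC of 1.35. Leaving out 1 of the 4 libraries at a time gave 10 to 12 higher. Several of those that rose are also induced by T cell receptor signals. Litaf, which takes part in endosomal trafficking, stood at 2657 and 2018 in tumor and 49.2 and 39.4 in spleen (log2FC 5.69, SE 0.40, adjusted p = 3.90e-09). Rgs2, a regulator of G protein signalling, stood at 4446 and 3975 in tumor and 344 and 489 in spleen (log2FC 3.35, SE 0.30, adjusted p = 1.87e-07). Nr4a1 and Xcl1, described below, also belong to this list.

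Of 14 tested factors and receptors of memory and stem-like cells, 6 fell and 2 rose, with a median log2FC of -0.70. Of 16 genes of circulating effector and memory cells, 4 rose and 5 fell, with a median of 0.14 that turned to -0.02 under the scaling without ribosomal RNA and mitochondrial genes. Their lower calls numbered 1 without tumor library 1, 3 without spleen library 1 and 2 without spleen library 2. Tcf7, which maintains stem-like T cells, stood at 51.4 and 34.7 in tumor and 306 and 366 in spleen (log2FC -2.96, SE 0.62, adjusted p = 0.00239). The interleukin-7 receptor Il7r stood at 525 and 464 in tumor and 1899.7 and 2417 in spleen (log2FC -2.12, SE 0.40, adjusted p = 0.00106). The factors that rose were Myb and Bach2. Myb stood at 41.9 and 43.3 in tumor and 6.70 and 0.820 in spleen (log2FC 3.54, SE 0.61, adjusted p = 4.53e-04). Bach2, a repressor of effector differentiation, stood at 551 and 572 in tumor and 186 and 210.0 in spleen (log2FC 1.5, SE 0.28, adjusted p = 7.98e-04). Without tumor library 1, tumor library 2 or spleen library 2 the memory and stem-like list had 3 lower members, and without spleen library 1 it had 4.

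Effector transcription factors split. Of 14 tested, 6 rose and 4 fell, with a median log2FC of 0.11 that turned to -0.03 when ribosomal RNA and mitochondrial genes were left out of the scaling. Irf8 stood at 1879 and 1618 in tumor and 33.5 and 35.3 in spleen (log2FC 5.62, SE 0.34, adjusted p = 8.84e-10). Irf4, which is induced in proportion to T cell receptor signal, stood at 1023 and 876 in tumor and 38.0 and 33.6 in spleen (log2FC 4.69, SE 0.31, adjusted p = 2.16e-09). Bhlhe40 stood at 14051 and 9736 in tumor and 2841 and 3326 in spleen (log2FC 1.93, SE 0.33, adjusted p = 4.10e-04). Zeb2, a factor of terminal effector cells, stood at 195 and 179.6 in tumor and 11.2 and 15.6 in spleen (log2FC 3.73, SE 0.81, adjusted p = 0.00315). In contrast to these 4, Id2 stood lower, at 2956 and 2566 in tumor and 9964 and 6832 in spleen (log2FC -1.58, SE 0.43, adjusted p = 0.0166). Id2 was not called without tumor library 1 (adjusted p = 0.0781) or tumor library 2 (adjusted p = 0.104) or spleen library 1 (adjusted p = 0.165). All 4 lower calls of the effector factor list were lost without tumor library 1, tumor library 2 or spleen library 1, and 2 were called lower without spleen library 2.

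Chemokine genes showed some of the largest contrasts. Of 7 tested, 6 rose and 1 fell, with a median log2FC of 6.50. Ccl3, an inflammatory chemokine, stood at 3300.5 and 3744 in tumor and 0 and 7.38 in spleen (log2FC 10.25, SE 0.67, adjusted p = 1.81e-09). Ccl4, a related chemokine, stood at 6109.9 and 7328 in tumor and 67.0 and 79.6 in spleen (log2FC 6.50, SE 0.44, adjusted p = 2.48e-09). Xcl1, which attracts cross-presenting dendritic cells, stood at 1629 and 1192 in tumor and 17.9 and 4.10 in spleen (log2FC 7.15, SE 0.65, adjusted p = 1.87e-07). Ccl1 was at 1154 and 1071 in tumor and 0 and 13.1 in spleen (log2FC 8.21, SE 0.82, adjusted p = 7.14e-07). Spleen values of Ccl3, Xcl1 and Ccl1 were at most 17.9. Ccl5, a product of memory and effector CD8+ T cells, went the other way and stood at 1675 and 1341 in tumor and 13776 and 9758 in spleen (log2FC -2.95, SE 0.58, adjusted p = 0.0014).

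Among 11 tested chemokine receptor genes, with S1pr1 counted among them, 4 rose and 2 fell, with a median log2FC of 0.33. Over all tested genes, 9.98% were called higher and 5.47% lower. Cxcr3, the receptor for CXCL9 and CXCL10, stood at 78.5 and 107 in tumor and 1026 and 788 in spleen (log2FC -3.28, SE 0.41, adjusted p = 1.18e-05). Ccr8, the receptor for CCL1, stood at 411 and 343 in tumor and 6.70 and 16.4 in spleen (log2FC 5.02, SE 0.55, adjusted p = 2.02e-06). Ligand and receptor of that pair thus rose in the same tumor libraries. Cx3cr1 stood at 78.5 and 128 in tumor and 44.7 and 20.51 in spleen (log2FC 1.69, SE 0.55, adjusted p = 0.0433). Cx3cr1 was not called without tumor library 1 (adjusted p = 0.0887) or tumor library 2 (adjusted p = 0.253) or spleen library 2 (adjusted p = 0.29), nor under 4 of the 18 other alternatives (adjusted p = 0.0559 to 0.0941). Without tumor library 1, 2 receptors were called higher in place of 4.

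Effector molecules were higher in tumor. Of 18 tested cytotoxic genes, 11 rose and 1 fell, with a median log2FC of 2.68, and leaving out 1 of the 4 libraries at a time gave 9 or 10 higher. Gzmb (chr14:56258838-56262260, mm10), the granzyme that activates caspases in target cells, stood at 96736 and 75646 in tumor and 5838 and 5469 in spleen (log2FC 3.92, SE 0.53, adjusted p = 3.19e-05). Perforin (Prf1), which lets granzymes into the target, stood at 16502 and 16500.3 in tumor and 637 and 790.0 in spleen (log2FC 4.54, SE 0.47, adjusted p = 1.26e-06). The tumor libraries agreed closely for perforin. Gzmc stood at 29938 and 26375 in tumor and 579 and 413 in spleen (log2FC 5.84, SE 0.89, adjusted p = 1.18e-04). Gzmd had 536 and 733 scaled counts in tumor and no read in spleen, and was at least 138-fold higher than a floor of 3 reads per spleen library (adjusted p = 8.21e-08). Gzme had 486 and 425 in tumor and no read in spleen, and was at least 99.4-fold higher (adjusted p = 6.10e-08). The granzymes from C to G lie in a cluster of similar sequences, so the counting could have moved reads among them. Gzmm, a granzyme of innate lymphocytes, was the member that fell, at 8.12 and 12.6 in tumor and 64.8 and 46.8 in spleen (log2FC -2.33, SE 0.51, adjusted p = 0.00356). Gzmm was not called without tumor library 1 (adjusted p = 0.0634) or spleen library 1 (adjusted p = 0.0536). Scaling without ribosomal RNA and mitochondrial genes gave 3 lower members in place of 1, and so did leaving out nonTrm library 2 of VHL-deficient tumor, which enters only the shared variance. The granzyme B inhibitor Serpinb9 rose with the granzymes, at 6560.4 and 4018 in tumor and 603 and 555 in spleen (log2FC 3.15, SE 0.34, adjusted p = 1.86e-06).

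Of 15 tested effector cytokine genes, 9 rose and 1 fell, with a median log2FC of 2.76, or 2.74 with genes that lack a read in 1 group set at their bound. Ifng, the cytokine that activates macrophages and antigen presentation, stood at 1648 and 1572 in tumor and 62.6 and 78.8 in spleen (log2FC 4.50, SE 0.49, adjusted p = 2.00e-06). Csf2, which encodes GM-CSF, stood at 421 and 458 in tumor and 11.2 and 9.02 in spleen (log2FC 5.32, SE 0.69, adjusted p = 1.87e-05). Spp1, which encodes the secreted phosphoprotein osteopontin, had 6623 and 6129 scaled counts in tumor and no read in spleen, and was at least 1391-fold higher (adjusted p = 1.75e-09). Areg, a ligand of the epidermal growth factor receptor, had 215 and 123 in tumor and no read in spleen, and was at least 36.9-fold higher (adjusted p = 1.86e-06). The member that fell was Il16, at 475 and 584 in tumor and 1220.3 and 1336 in spleen (log2FC -1.28, SE 0.29, adjusted p = 0.00498). Il16 was not called without tumor library 1 (adjusted p = 0.0782).

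**Figure D3:**
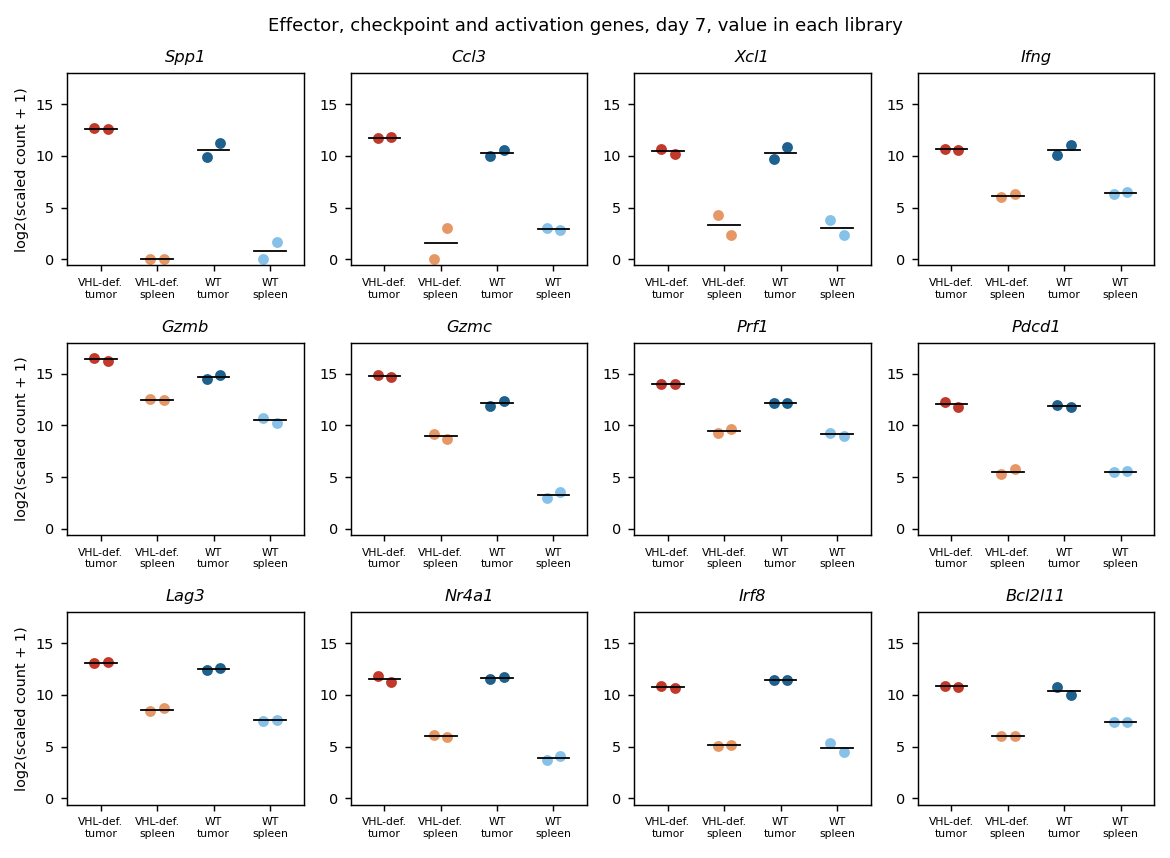
Log2(scaled count + 1) of 12 effector, inhibitory-receptor and activation genes in each library of the 4 day 7 groups; points are libraries (n = 2 a group) and horizontal lines are group means. In all 12 panels both VHL-deficient tumor libraries lie above both VHL-deficient spleen libraries, as they do for every gene called higher.

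Of 13 tested inhibitory receptors, 7 rose, 1 fell and 5 were not called, with a median log2FC of 2.01, and 6 or 7 were called higher when 1 of the 4 libraries was left out. Pdcd1 (chr1:94038305-94052553, mm10), which encodes PD-1, stood at 4967 and 3648 in tumor and 38.0 and 54.1 in spleen (log2FC 6.52, SE 0.40, adjusted p = 1.09e-09). Havcr2, which encodes TIM-3, stood at 2229 and 2564 in tumor and 60.3 and 59.9 in spleen (log2FC 5.29, SE 0.39, adjusted p = 8.93e-09). Lag3, a receptor for class II MHC, stood at 8577 and 9292 in tumor and 344 and 432 in spleen (log2FC 4.53, SE 0.25, adjusted p = 3.76e-10). For all 3, both tumor libraries lay far above both spleen libraries. Ctla4, which competes with CD28 for its ligands, stood at 5895 and 4455 in tumor and 1193 and 1362 in spleen (log2FC 2.01, SE 0.31, adjusted p = 1.24e-04). Tigit stood at 1140.3 and 1129.8 in tumor and 165 and 252 in spleen (log2FC 2.47, SE 0.24, adjusted p = 5.55e-07). Vsir, which encodes VISTA, was the member that fell, at 2277 and 2137 in tumor and 3992 and 3741 in spleen (log2FC -0.81, SE 0.25, adjusted p = 0.029). Vsir was not called without any 1 of the 4 libraries (adjusted p = 0.0866 to 0.165), nor under 2 of the 18 other alternatives (adjusted p = 0.0516 to 0.0677).

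Of 8 tested NR4A and TOX family genes and related factors, 6 rose and 1 fell, with a median log2FC of 3.86. The orphan nuclear receptor Nr4a1, an early reporter of T cell receptor signalling, stood at 3683 and 2526 in tumor and 69.3 and 61.5 in spleen (log2FC 5.52, SE 0.37, adjusted p = 2.16e-09). Nr4a2 stood at 5168 and 3601 in tumor and 22.3 and 26.3 in spleen (log2FC 7.42, SE 0.44, adjusted p = 7.91e-10), and Nr4a3 at 534 and 439.6 in tumor and 15.6 and 9.02 in spleen (log2FC 5.23, SE 0.34, adjusted p = 1.75e-09). Tox, a factor of exhausted T cells, stood at 74.4 and 67.0 in tumor and 24.6 and 50.9 in spleen and did not pass the test (log2FC 0.97, SE 0.46, adjusted p = 0.168). Nfatc2, a calcineurin-activated factor, fell, at 173 and 196 in tumor and 436 and 418 in spleen (log2FC -1.21, SE 0.30, adjusted p = 0.00967). Nfatc2 was not called without tumor library 1 (adjusted p = 0.095) or spleen library 1 (adjusted p = 0.073).

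Immediate early genes, which are transcribed within minutes of a stimulus, were higher for 15 of 23 tested and lower for none, with a median log2FC of 1.39. Atf3 stood at 1154 and 1481 in tumor and 8.94 and 2.46 in spleen (log2FC 7.80, SE 0.51, adjusted p = 1.75e-09). Egr3, induced through NFAT, stood at 124 and 216 in tumor and 13.4 and 9.02 in spleen (log2FC 3.78, SE 0.35, adjusted p = 2.41e-07). The AP-1 subunit Junb stood at 23269.7 and 18126 in tumor and 2693 and 3592 in spleen (log2FC 2.72, SE 0.33, adjusted p = 9.34e-06). Fosl2, another AP-1 subunit, was higher by a log2FC of 2.84. Without spleen library 1, 7 were called higher, and without tumor library 1 or tumor library 2, 10.

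Rgs16 and Zbtb32 were among the 12 largest increases outside these lists. Rgs16, a regulator of G protein signalling that dampens chemokine receptors, had 4756 and 5604 scaled counts in tumor and 0 and 1 read in spleen. Its ratio of tumor to spleen was 8818, with an exact 95% counting interval of 1582 to 348300 (adjusted p = 7.50e-12). Zbtb32, a repressor induced by activation, stood at 1780.1 and 1869 in tumor and 6.70 and 23.8 in spleen (log2FC 7.04, SE 0.42, adjusted p = 7.91e-10). Serpine2, a serine protease inhibitor, stood at 732 and 814 in tumor and 6.70 and 17.2 in spleen (log2FC 6.03, SE 0.54, adjusted p = 1.87e-07). Serpinb9b, another serpin with close paralogs, stood at 551 and 834 in tumor and 6.70 and 5.74 in spleen (log2FC 6.56, SE 1.17, adjusted p = 5.72e-04). Serpinb9b was not called under 1 of the 18 other alternatives (adjusted p = 0.0592). Among the 12 largest decreases outside the lists were Pik3ip1, a negative regulator of phosphoinositide 3-kinase, and Abcg1, a sterol exporter. Pik3ip1 stood at 59.5 and 62.2 in tumor and 769 and 628 in spleen (log2FC -3.49, SE 0.39, adjusted p = 3.22e-06). Abcg1 stood at 40.6 and 22.8 in tumor and 329 and 379.8 in spleen (log2FC -3.49, SE 0.65, adjusted p = 8.23e-04). Ggt1, Nebl, St3gal6 and Atp10d completed that set, with log2FC values of -3.41, -3.66, -3.31 and -3.07.

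Of 14 tested costimulatory receptors and ligands, 8 rose and 2 fell, with a median log2FC of 1.23. Tnfrsf9, which encodes 4-1BB, stood at 13048 and 9727 in tumor and 261 and 275 in spleen (log2FC 5.39, SE 0.34, adjusted p = 1.09e-09). Tnfrsf4, which encodes OX40, stood at 1017 and 925 in tumor and 29.1 and 11.5 in spleen (log2FC 5.65, SE 0.56, adjusted p = 6.22e-07). The genes that fell were Cd226, the activating counterpart of TIGIT, at 314 and 291 in tumor and 753 and 681 in spleen (log2FC -1.24, SE 0.22, adjusted p = 5.72e-04), and Slamf7, at 1142 and 1253 in tumor and 3214 and 2580.0 in spleen (log2FC -1.27, SE 0.26, adjusted p = 0.00202). Tigit and Cd226, which bind the same ligands, thus moved in opposite directions.

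Of 21 tested cytokine receptor genes, 5 rose, 2 fell and 14 were not called, against 9.98% higher and 5.47% lower over all tested genes. Their median log2FC was 0.25, or 0.05 under the scaling without ribosomal RNA and mitochondrial genes. Il2ra, the high-affinity chain of the interleukin-2 receptor, stood at 1121 and 989 in tumor and 194 and 136 in spleen (log2FC 2.69, SE 0.25, adjusted p = 3.32e-07). Il2rb stood at 8520.4 and 6899 in tumor and 2429 and 2631 in spleen (log2FC 1.60, SE 0.30, adjusted p = 9.30e-04). The decoy receptor Il1r2 stood at 1327 and 1239 in tumor and 20.1 and 38.6 in spleen (log2FC 5.47, SE 0.54, adjusted p = 5.45e-07). Of 10 genes of cytokine feedback, 4 rose, among them Socs1, at 184 and 158 in tumor and 44.7 and 57.4 in spleen (log2FC 1.73, SE 0.36, adjusted p = 0.00241). Without tumor library 2 or spleen library 1, 2 of the 10 were called. In the TGF-beta pathway, 4 of 14 tested genes rose and 1 fell, but the median log2FC was -0.27. Both tumor libraries lay above both spleen libraries for 6 of the 14 and below them for 7. Of all tested genes, 33.8% lay above and 29.0% below in this way. Tgif1 and Skil, which repress SMAD-driven transcription, were higher, with log2FC values of 3.26 and 3.00. Smad3, the receptor-activated SMAD, stood at 51.4 and 94.5 in tumor and 521 and 407 in spleen (log2FC -2.70, SE 0.62, adjusted p = 0.00505). Smad3 was not called without tumor library 1 (adjusted p = 0.0887) or spleen library 1 (adjusted p = 0.0584).

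Of 24 tested mitosis genes, 22 rose and none fell, with a median log2FC of 3.00, and 18 to 22 were called higher when 1 of the 4 libraries was left out. Mki67, the proliferation marker Ki-67, stood at 1013 and 915 in tumor and 210.1 and 190.3 in spleen (log2FC 2.26, SE 0.28, adjusted p = 1.18e-05). Top2a, the topoisomerase of dividing cells, stood at 1869 and 1727 in tumor and 194 and 249 in spleen (log2FC 3.02, SE 0.38, adjusted p = 1.34e-05). Kif11, a spindle motor, stood at 465 and 479.8 in tumor and 15.6 and 47.6 in spleen (log2FC 4.06, SE 0.50, adjusted p = 1.07e-05). Both tissues had these transcripts, and the tissues did not overlap, as for every called gene. Of 18 tested DNA replication genes, 15 rose and none fell, with a median log2FC of 2.58. Cdc6, which loads the replicative helicase, stood at 206 and 153 in tumor and 6.70 and 8.204 in spleen (log2FC 4.40, SE 0.77, adjusted p = 5.05e-04). Ccne2, a cyclin of S-phase entry, had 142 and 79.6 in tumor and 3 reads over both spleen libraries, a ratio of 57.0 with a counting interval of 19.2 to 278 (adjusted p = 5.05e-06). Without spleen library 1, 9 replication genes were called.

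In the BCL2 family, which sets the threshold of apoptosis, 4 of 12 tested genes rose and 2 fell, with a median log2FC of 0.17 that turned to -0.03 when ribosomal RNA and mitochondrial genes were left out of the scaling. Bcl2l11, which encodes the pro-apoptotic protein BIM, stood at 1842 and 1799 in tumor and 62.6 and 64.0 in spleen (log2FC 4.82, SE 0.33, adjusted p = 2.42e-09). Bcl2, the anti-apoptotic founder of the family, stood at 1389 and 1394 in tumor and 2443 and 2724 in spleen (log2FC -0.89, SE 0.22, adjusted p = 0.0097). Bcl2l1, which encodes the anti-apoptotic BCL-XL, stood at 841 and 500.3 in tumor and 203 and 237 in spleen (log2FC 1.56, SE 0.40, adjusted p = 0.0116). Pro- and anti-apoptotic members were therefore found among the genes that rose. Bcl2 was not called without tumor library 1 (adjusted p = 0.0755) or tumor library 2 (adjusted p = 0.0587) or spleen library 2 (adjusted p = 0.0746). Bcl2l1 was not called without tumor library 1 (adjusted p = 0.177) or spleen library 1 (adjusted p = 0.0971), nor under 1 of the 18 other alternatives (adjusted p = 0.0567). Reads of Bcl2a1b and Bcl2a1d, near-identical genes that were also called higher, may have been split between them.

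HIF binds DNA at sites whose core can be ACGTG, so the 250 bases before the transcription start of 4 target genes are shown, with ACGTG on either strand in capitals (RefSeq, GRCm38.p6, 5′ to 3′ on the gene's strand). The first 3 hold the core and Tpi1 does not. Of these 4 genes, only Slc16a3 and Tpi1 passed the test of a genotype difference described below, with the limits given there.
Slc16a3, chr11:120948817-120949066, plus strand: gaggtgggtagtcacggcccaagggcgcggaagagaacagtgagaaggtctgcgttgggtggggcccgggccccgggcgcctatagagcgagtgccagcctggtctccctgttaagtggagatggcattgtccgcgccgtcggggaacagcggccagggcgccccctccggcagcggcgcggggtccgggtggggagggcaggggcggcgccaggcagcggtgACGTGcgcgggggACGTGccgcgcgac
Pgk1, chrX:106186850-106187099, plus strand: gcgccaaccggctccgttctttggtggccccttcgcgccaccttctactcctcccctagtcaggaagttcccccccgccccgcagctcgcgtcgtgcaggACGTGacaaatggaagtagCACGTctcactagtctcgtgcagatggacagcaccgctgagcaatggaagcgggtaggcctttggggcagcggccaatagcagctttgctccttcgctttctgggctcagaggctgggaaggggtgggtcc
Egln3, chr12:54203875-54204124, minus strand: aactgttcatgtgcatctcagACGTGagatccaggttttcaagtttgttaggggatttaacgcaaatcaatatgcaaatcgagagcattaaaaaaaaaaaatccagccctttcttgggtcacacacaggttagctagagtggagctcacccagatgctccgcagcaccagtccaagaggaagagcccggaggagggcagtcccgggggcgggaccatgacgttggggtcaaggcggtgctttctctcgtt
Tpi1, chr6:124814159-124814408, minus strand: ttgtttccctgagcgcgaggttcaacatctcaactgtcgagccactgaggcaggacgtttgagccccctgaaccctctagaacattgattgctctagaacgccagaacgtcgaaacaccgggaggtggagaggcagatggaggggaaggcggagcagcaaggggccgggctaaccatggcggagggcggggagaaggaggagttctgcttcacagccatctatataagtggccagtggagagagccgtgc
The core occurs at 2 places in the Slc16a3 and Pgk1 windows and at 1 place in that of Egln3. On either strand it lay in the same window of 25.3% of the 9321 tested genes with a promoter sequence, of 10 of 20 glycolysis targets and of 14 of 20 other HIF targets. For comparison, 7 of 25 oxidative phosphorylation genes had it. The letters overlap the E-box CACGTG, found in 9.98% of tested promoters and in none of the 4 windows. Since the lists were drawn up from known HIF targets, these shares are a description, and a match is not evidence of binding.

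Of 21 tested genes of glucose uptake and glycolysis, 12 rose, none fell, and all 21 had both tumor libraries above both spleen libraries, which 33.8% of all tested genes had. The median log2FC was 1.12. Slc16a3, the lactate exporter MCT4, stood at 5511 and 4454 in tumor and 1301 and 1399.5 in spleen (log2FC 1.88, SE 0.30, adjusted p = 2.05e-04). Pkm, which makes pyruvate, stood at 27336 and 27312 in tumor and 7974 and 8712 in spleen (log2FC 1.71, SE 0.29, adjusted p = 3.12e-04). Gapdh stood at 8895 and 8750.4 in tumor and 2579 and 2612 in spleen (log2FC 1.76, SE 0.34, adjusted p = 0.0011). For each of these 3 genes the tumor libraries were close to each other and above both spleen libraries. Pgk1 stood at 4379 and 4346 in tumor and 1607 and 1469 in spleen (log2FC 1.5, SE 0.25, adjusted p = 3.30e-04). Ldha, which reduces pyruvate to lactate, stood at 35732 and 34044 in tumor and 14418 and 13399 in spleen (log2FC 1.33, SE 0.36, adjusted p = 0.0148). The glucose transporter Slc2a1, at 1499 and 1297 in tumor and 840.4 and 870.4 in spleen, did not pass the test (log2FC 0.70, SE 0.28, adjusted p = 0.101). Pdk1, which inhibits pyruvate dehydrogenase, did not either, at 1441 and 1578 in tumor and 724 and 906 in spleen (log2FC 0.90, SE 0.50, adjusted p = 0.25). Under 4 of 22 alternatives Slc2a1 was called higher, and under 2 of them Pdk1 was. Without any 1 of the 4 libraries, 5 or 6 of the 21 were called. Ldha was not called without any 1 of the 4 libraries (adjusted p = 0.07 to 0.104).

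Of 28 other tested HIF targets, 15 rose and none fell, with a median log2FC of 1.30. Nrn1, which encodes neuritin, stood at 1149.8 and 1041 in tumor and 82.7 and 73.8 in spleen (log2FC 3.79, SE 0.57, adjusted p = 1.08e-04). Ndrg1 stood at 3867 and 3857 in tumor and 1495 and 1419 in spleen (log2FC 1.41, SE 0.28, adjusted p = 0.00153). Bnip3l, a mitophagy receptor, stood at 1395 and 1331 in tumor and 637 and 632 in spleen (log2FC 1.10, SE 0.20, adjusted p = 7.28e-04). Egln3, a prolyl hydroxylase that is both a regulator and a target of HIF, stood at 2340.1 and 2196 in tumor and 1254 and 1183 in spleen (log2FC 0.90, SE 0.29, adjusted p = 0.0397). The angiogenic factor Vegfa was low in both tissues, at 66.3 and 37.0 in tumor and 20.1 and 17.2 in spleen, and did not pass the test (log2FC 1.37, SE 0.56, adjusted p = 0.109). Under 2 of 22 alternatives Vegfa was called higher. Without tumor library 1, 6 of the 28 were called, without spleen library 2, 8, and without either other library, 10. Egln3 was not called without any 1 of the 4 libraries (adjusted p = 0.123 to 0.202), nor under 4 of the 18 other alternatives (adjusted p = 0.0508 to 0.106).

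**Figure D4:**
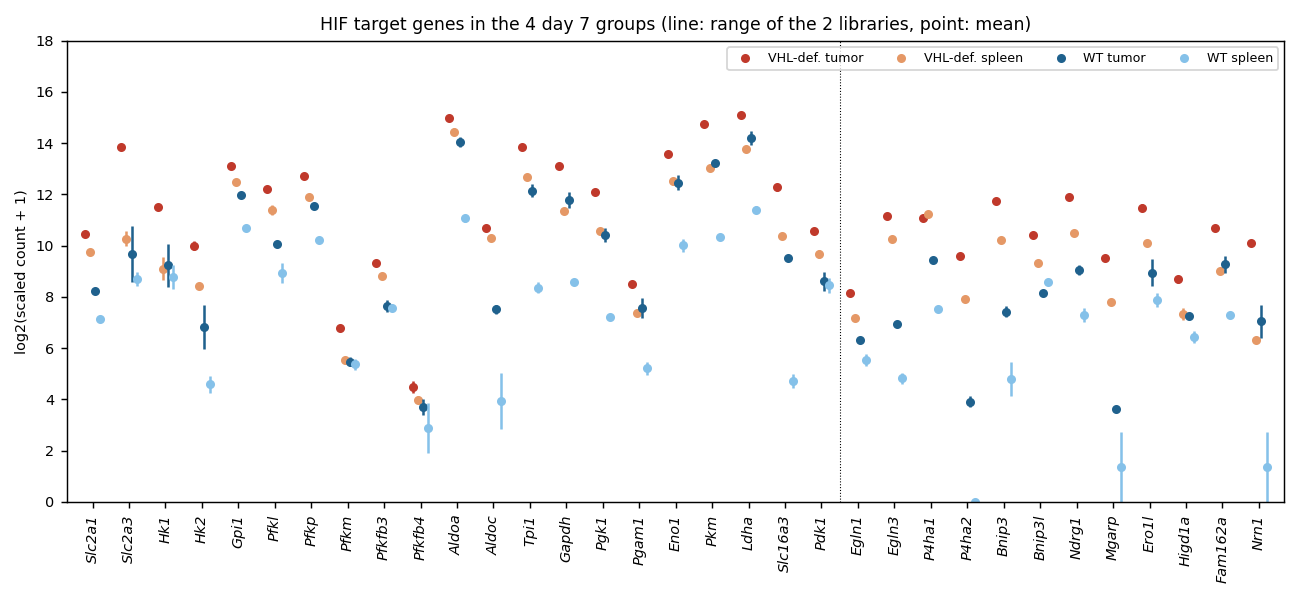
Mean log2(scaled count + 1) of 33 HIF targets in the 4 day 7 groups, with lines over the range of the 2 libraries; genes left of the dotted line act in glucose uptake and glycolysis, the others in other functions. The genes right of the line were picked from 28 other tested HIF targets, so they do not stand for that list. Of the 28, 15 were called higher and none lower, and 24 had a log2FC above 0. For every gene shown except P4ha1 the mean of VHL-deficient tumor is the highest of the 4. For Tpi1 and Slc16a3 the VHL-deficient spleen lies closer to its tumor than the WT spleen does to WT tumor.

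Among 12 genes of oxygen sensing, 3 rose and none fell, against 9.98% higher and 5.47% lower over all tested genes. The median log2FC of the 12 was 0.34. Hif1a itself (chr12:73901375-73947530, mm10), the oxygen-regulated HIF subunit, stood at 1946 and 1530.0 in tumor and 277 and 341 in spleen (log2FC 2.48, SE 0.29, adjusted p = 4.54e-06). Egln1, the main HIF prolyl hydroxylase, stood at 271 and 294 in tumor and 156 and 135 in spleen (log2FC 0.95, SE 0.30, adjusted p = 0.0328). Egln1 was not called without any 1 of the 4 libraries (adjusted p = 0.0957 to 0.157), nor under 2 of the 18 other alternatives (adjusted p = 0.0757 to 0.104). Without any 1 of the 4 libraries, or with ribosomal RNA and mitochondrial genes left out of the scaling, 1 of the 12 was called higher. Under that scaling, and with recomputed size factors, 1 was also called lower. Of 9 tested glycogen genes, 4 rose. Gys1, glycogen synthase, stood at 483 and 541 in tumor and 69.3 and 144 in spleen (log2FC 2.34, SE 0.51, adjusted p = 0.00319). Gys1 was not called without spleen library 1 (adjusted p = 0.0779). The list had no call without spleen library 1, 1 without tumor library 1, 2 without tumor library 2, and 1 under the other scaling.

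None of 35 tested nuclear genes of oxidative phosphorylation was called in the limma fit used here or by voom, and their log2FC values ran from -0.60 to 0.65 with a median of 0.15, which became -0.06 under the scaling without ribosomal RNA and mitochondrial genes. At an unadjusted p under 0.05 there was 1 in that fit. Atp5b, a subunit of ATP synthase, stood at 6145 and 5939 in tumor and 3909 and 3813 in spleen (log2FC 0.65, SE 0.28, adjusted p = 0.125). It was called with library weights (adjusted p = 0.0409) and in a limma fit of the VHL-deficient tumor and spleen groups alone (adjusted p = 0.0159), where Atp5a1 was called too (adjusted p = 0.0337). None of 8 tested genes of the mitochondrial genome was called either, in that fit or by voom, and 0 had an unadjusted limma p under 0.05, with a median log2FC of -0.25. The cytochrome oxidase subunit mt-Co1 stood at 22098 and 23785 in tumor and 31802 and 24448 in spleen (log2FC -0.28, SE 0.40, adjusted p = 0.689). In the TCA cycle and pyruvate dehydrogenase list, 2 of 22 rose and 1 fell, against 9.98% higher and 5.47% lower over all tested genes. The higher calls numbered 1 under each other scaling and without tumor library 1, tumor library 2 or spleen library 1, 4 without nonTrm library 2 and 5 in a fit of the 8 day 7 libraries alone. The lower call was lost without tumor library 1, spleen library 1 or spleen library 2. Pdk3, which inhibits pyruvate dehydrogenase, stood at 559 and 591 in tumor and 212 and 225 in spleen (log2FC 1.39, SE 0.27, adjusted p = 0.0011). Of 14 tested genes of fatty acid oxidation, 1 was called, against 15.4% of all tested genes. It was Acadl, at 1089 and 975 in tumor and 601 and 520.1 in spleen (log2FC 0.88, SE 0.30, adjusted p = 0.0488). Acadl was not called without any 1 of the 4 libraries (adjusted p = 0.123 to 0.244), nor under 9 of the 18 other alternatives (adjusted p = 0.0501 to 0.0993).

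Of 19 cholesterol synthesis genes, 8 rose and none fell, with a median log2FC of 1.25. Cyp51, a demethylase of the sterol pathway, stood at 518 and 289 in tumor and 71.5 and 41.0 in spleen (log2FC 2.81, SE 0.54, adjusted p = 0.00121). The list had 1 call without spleen library 1, 2 without tumor library 1 and 6 or 8 without either other library. Of 19 genes of amino acid supply and the ATF4 stress response, 10 rose and none fell, with a median log2FC of 1.21. Mthfd2, a mitochondrial folate enzyme, stood at 438 and 485 in tumor and 112 and 115 in spleen (log2FC 2.01, SE 0.36, adjusted p = 6.50e-04). Psat1, an enzyme of serine synthesis, stood at 660.1 and 653 in tumor and 212 and 165 in spleen (log2FC 1.81, SE 0.38, adjusted p = 0.00237). Between 3 and 6 of the list were called without 1 library, with 3 without tumor library 1, 5 without either spleen library and 6 without tumor library 2.

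Of 14 unfolded protein response genes, 7 rose and none fell. The endoplasmic reticulum chaperone Hspa5 stood at 10242 and 7909 in tumor and 2219 and 2683 in spleen (log2FC 1.88, SE 0.29, adjusted p = 1.56e-04). Calr, which encodes calreticulin, stood at 2180.5 and 1847 in tumor and 746 and 839 in spleen (log2FC 1.34, SE 0.28, adjusted p = 0.0021). Without tumor library 1, tumor library 2 or spleen library 1, 4 were called, and without spleen library 2, 3. Of 12 heat shock genes, 6 rose and none fell. Hspd1, a mitochondrial chaperonin, stood at 1014 and 792 in tumor and 308 and 293 in spleen (log2FC 1.57, SE 0.32, adjusted p = 0.00188). The cytosolic chaperone Hsp90ab1 stood at 17812 and 15981 in tumor and 5956 and 6104 in spleen (log2FC 1.48, SE 0.32, adjusted p = 0.00274). Without tumor library 1 or spleen library 1, 2 heat shock genes were called, and 3 without tumor library 2 or under the scaling without ribosomal RNA and mitochondrial genes. Of 16 tested metallothionein and redox genes, 2 were called higher, against 9.98% of all tested genes. None was called without tumor library 1 or spleen library 2.

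Of 24 tested interferon-stimulated genes, 7 rose and 1 fell, with a median log2FC of 0.62. Over all tested genes, 9.98% were called higher and 5.47% lower. Rsad2, which encodes the antiviral protein viperin, stood at 98.7 and 119.8 in tumor and 44.7 and 9.84 in spleen (log2FC 2.30, SE 0.62, adjusted p = 0.0144). Oas2 was the member that fell, at 6.76 and 3.94 in tumor and 33.5 and 25.4 in spleen (log2FC -2.29, SE 0.64, adjusted p = 0.0179). Rsad2 was not called without tumor library 1 (adjusted p = 0.0715) or tumor library 2 (adjusted p = 0.0925) or spleen library 2 (adjusted p = 0.236). Oas2 was not called without any 1 of the 4 libraries (adjusted p = 0.0501 to 0.133). The list had no call without tumor library 2, 2 higher without tumor library 1 or spleen library 1, 6 without spleen library 2, and 4 under the scaling without ribosomal RNA and mitochondrial genes.

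Of 9 genes of purinergic and adenosine signalling, 4 rose and 1 fell, with a median log2FC of 0.38. Over all tested genes, 9.98% were called higher and 5.47% lower. Adora2b, an adenosine receptor, had 21.6 and 33.9 scaled counts in tumor and no read in spleen, and was at least 6.06-fold higher (adjusted p = 8.35e-05). Nt5e, which encodes the adenosine-producing enzyme CD73, stood at 318 and 338 in tumor and 55.9 and 85.3 in spleen (log2FC 2.23, SE 0.57, adjusted p = 0.0107). Nt5e was not called without tumor library 1 (adjusted p = 0.0706) or tumor library 2 (adjusted p = 0.0664) or spleen library 1 (adjusted p = 0.115). The higher calls numbered 1 without tumor library 1, tumor library 2 or spleen library 1, and 2 under the scaling without ribosomal RNA and mitochondrial genes. Of 6 tested class II MHC genes, 2 were called higher, with none without tumor library 1 or spleen library 2. The class II list split. Both tumor libraries lay above both spleen libraries for 3 of the 6 and below them for 3. Of all tested genes, 33.8% lay above and 29.0% below in this way. The log2FC values of the 6 ran from -2.55 to 3.21, with a median of 0.35. H2-Ab1 stood at 1821 and 1575 in tumor and 534 and 437 in spleen (log2FC 1.81, SE 0.57, adjusted p = 0.0342). H2-Ab1 was not called without any 1 of the 4 libraries (adjusted p = 0.108 to 0.186), nor under 3 of the 18 other alternatives (adjusted p = 0.0534 to 0.0782). None of 11 histone and DNA demethylase genes was called in the limma fit used here or by voom, with 2 at an unadjusted limma p under 0.05. Without nonTrm library 2 limma called 2 of them higher, and in a fit of the 8 day 7 libraries alone 1. Kdm3a, a HIF target, stood at 794 and 714 in tumor and 505 and 534 in spleen (log2FC 0.53, SE 0.52, adjusted p = 0.539).

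In WT cells, 3079 genes differed between tumor and spleen, 21.5% of those tested, 1889 higher (13.2%) and 1190 lower (8.31%). In WT cells 33.1% of tested genes had both tumor libraries above both spleen libraries and 26.8% had them below. The WT count was 1486 without WT tumor library 2, 1881 without WT spleen library 1 and 1633 without WT spleen library 2, and under the scaling without ribosomal RNA and mitochondrial genes 37.2% of its calls were higher, against 61.4% here. Which genotype had more calls depended on the fit: fitted on their own 2 groups, the VHL-deficient cells had 3034 and the WT cells 1126, and library weights gave 3494 in VHL-deficient and 2927 in WT cells. The 2 comparisons share no library. In total 1369 genes were called in the same direction in both, which is 61.9% of the VHL-deficient calls and 44.5% of the WT calls, and 1 gene, Mex3b, was called in opposite directions. Mex3b was named after its values were seen. S1pr1 stood at 67.6 and 37.6 in WT tumor and 1289 and 1445 in WT spleen (log2FC -4.73, adjusted p = 1.32e-06), and Pdcd1 at 4034 and 3645 in WT tumor and 44.5 and 46.1 in WT spleen (log2FC 6.37, adjusted p = 9.03e-10). The test of a difference between genotypes gave an adjusted p of 0.858 for S1pr1 and 0.942 for Pdcd1, which does not show that the genotypes were alike. For Itgae, the WT difference was called, with 2.18 and 4.70 in WT tumor and 102 and 183 in WT spleen (log2FC -5.01, adjusted p = 2.60e-05), but the genotype difference did not pass (log2 difference 3.53, SE 0.96, adjusted p = 0.256).

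**Figure D5:**
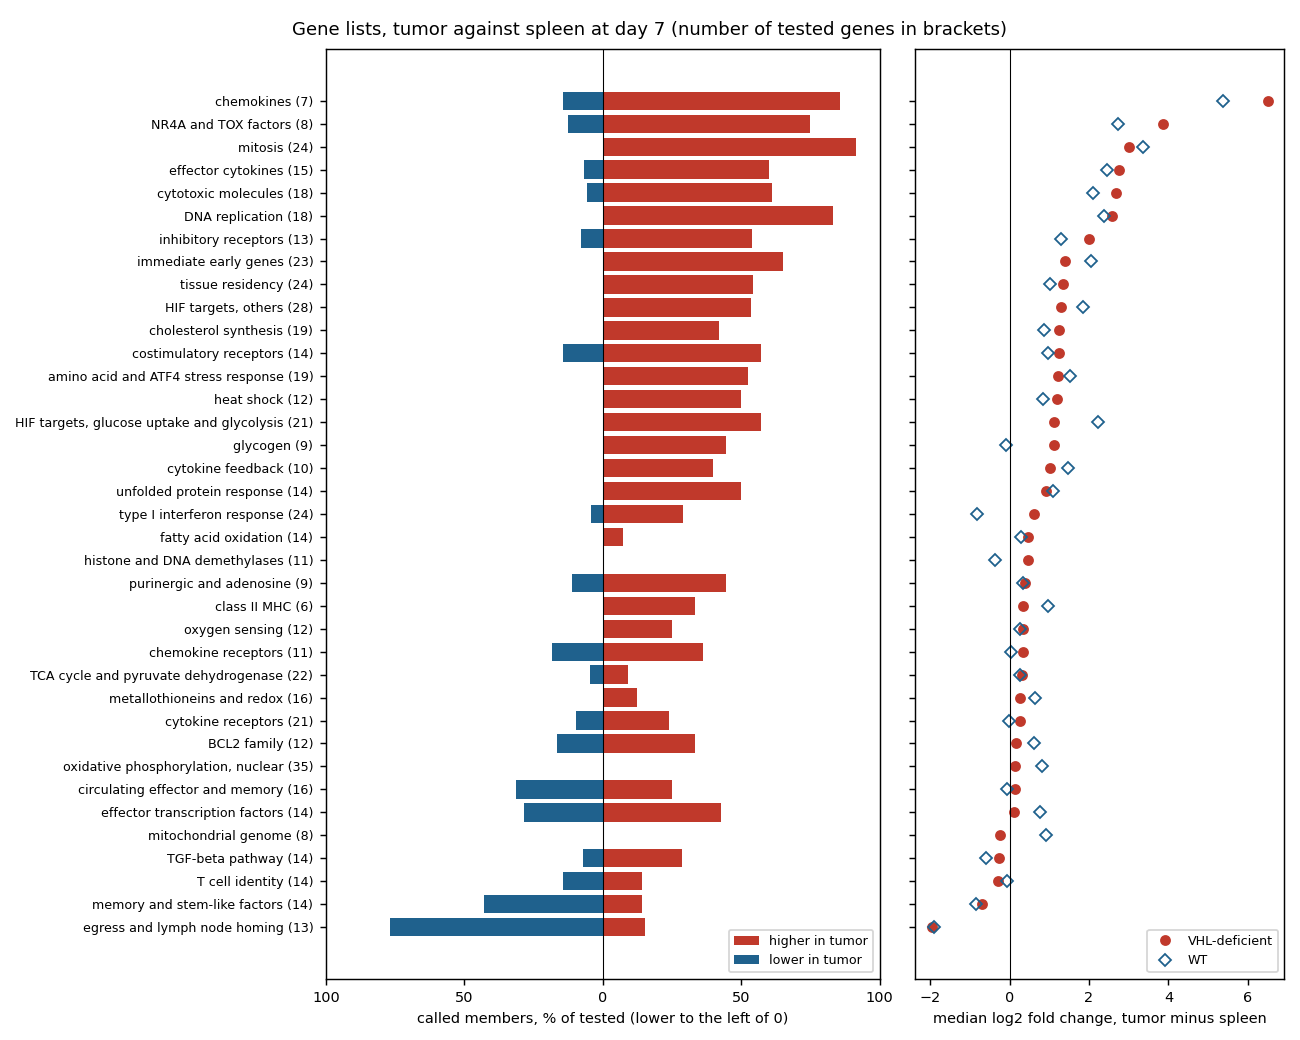
Left, share of tested members of each list called higher (red, right of 0) or lower (blue, left of 0) in tumor than in spleen in VHL-deficient cells, in percent; right, median log2 fold change of the list in VHL-deficient cells (filled) and WT cells (open), lists ordered by the VHL-deficient median. Of the 37 lists shown, chemokines have the highest median (6.50) and egress and homing genes the lowest (-1.95) in VHL-deficient cells; the medians of circulating effector and memory genes, effector transcription factors, nuclear oxidative phosphorylation and the BCL2 family, all between 0.11 and 0.17, change sign when ribosomal RNA and mitochondrial genes are left out of the scaling.

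The tissue difference itself differed between genotypes in 10 genes, 0.0698% of those tested, 3 with a larger value in VHL-deficient cells (0.0209%) and 7 with a smaller one (0.0489%). At an unadjusted p under 0.05 there were 1377. Glycolysis and lactate export were represented by Slc16a3 and Tpi1. Slc16a3 stood at 736 and 722 in WT tumor and 30.6 and 20.95 in WT spleen (log2FC 4.79, adjusted p = 7.60e-10), so that it was higher in the VHL-deficient spleen libraries than in the WT tumor libraries, and the genotype difference passed the test (log2 difference -2.92, SE 0.42, adjusted p = 0.0148). Tpi1, triosephosphate isomerase, stood at 15093 and 14163 in VHL-deficient tumor and 6846 and 6262 in VHL-deficient spleen (log2FC 1.16, SE 0.32, adjusted p = 0.0178). In WT cells it stood at 3807 and 5385 in tumor and 379.9 and 285 in spleen (log2FC 3.78, adjusted p = 6.05e-08), and the genotype difference passed (log2 difference -2.62, SE 0.45, adjusted p = 0.0359). Over the 21 glycolytic HIF targets the median tissue difference was 1.12 in VHL-deficient cells and 2.23 in WT cells, and over the other HIF targets it was 1.30 in VHL-deficient and 1.84 in WT cells. Taken gene by gene, the median genotype difference was -0.69 for the glycolytic and -0.16 for the other HIF targets, against -0.03 over all tested genes. A negative median was not particular to HIF targets. It was -0.62 for nuclear oxidative phosphorylation genes and -1.09 for the mitochondrial genome, while interferon-stimulated genes had 1.25. For the nuclear oxidative phosphorylation genes the median tissue difference was 0.15 in VHL-deficient and 0.81 in WT cells, with 0 and 6 genes called higher. No gene of that list passed the test of the genotype difference. Without any 1 of the 4 VHL-deficient libraries, Tpi1 was called neither for the genotype difference nor for the tissue difference in VHL-deficient cells. Its log2 difference between genotypes was then -2.684 to -2.555.

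Bnip3l went the other way, called higher in VHL-deficient tumor as given above and at 299 and 275 in WT tumor and 377 and 398 in WT spleen (log2FC -0.43, adjusted p = 0.132), with a genotype difference that passed (log2 difference 1.53, SE 0.28, adjusted p = 0.0469). Nfil3, a basic leucine zipper factor of lymphocytes, stood at 709 and 756 in VHL-deficient tumor and 554 and 664 in VHL-deficient spleen (log2FC 0.27, SE 0.32, adjusted p = 0.627), against 498 and 492 in WT tumor and 72.4 and 38.8 in WT spleen (log2FC 3.20, adjusted p = 5.64e-07). Its genotype difference passed (log2 difference -2.93, SE 0.45, adjusted p = 0.0159). Ctla4 stood at 3804 and 3666 in WT tumor and 255 and 139 in WT spleen (log2FC 4.30, adjusted p = 5.06e-09), a larger difference than in VHL-deficient cells (log2 difference -2.30, SE 0.43, adjusted p = 0.047). For both Nfil3 and Ctla4, the WT spleen libraries were the lowest of the 8. The genotype difference of Bnip3l and of Ctla4 was not called when any VHL-deficient library of this comparison was left out. The log2 difference was then 1.5 to 1.567 for Bnip3l and -2.497 to -2.093 for Ctla4. In limma, the count of 10 was 0 without VHL-deficient tumor library 1 and 0 without VHL-deficient tumor library 2, where 918 and 1070 genes had an unadjusted p under 0.05. Without VHL-deficient spleen library 1, only Slc16a3, Nfil3 and Tubb6, described below, stayed called. Without VHL-deficient spleen library 2, most called genes lay outside the 10 and had a larger value in VHL-deficient cells. No gene called without WT tumor library 2 or without WT spleen library 2 was among the 10. Nor was the 1 gene called without a variance trend. The log2 differences of the 10 kept their signs in every alternative. Voom called 2 genes, both among the 10.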

How the data were processed

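RNA of sorted cells was sequenced by the authors in 22 libraries and deposited as 1 table of 46297 rows. Per the submitters' processing notes the tools were STAR, featureCounts and DESeq with the mm10 build. Strand setting and versions were not stated in the sources at hand. The deposited values are a signal per gene, which the authors made by dividing reads by a size factor and adding 1. After the offset of 1 was removed, 100% of values were whole reads within 0.01 of a read. The table's header states 55 samples, and the 22 columns each matched 1 sample.

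The test covered the 14327 genes that reached a scaled count of 10 in 2 or more libraries. The values log2(scaled count + 1) were fitted with limma 3.58.1 in R 4.3.3, with 10 group means over 22 libraries and a trended variance prior. Tests were two-sided, with Benjamini-Hochberg adjustment over all tested genes and calls at 0.05. Python 3.11.15, numpy 2.4.6, pandas 2.3.3 and matplotlib 3.10.9 made the tables and plots. Genes without a read in 1 group were given as a fold against a floor of 3 reads per library. Ratios with 1 to 3 reads in a group carry exact 95% intervals, which cover counting error only. The fit was also run on simulated reads, drawn with the same dispersion for every gene and library. The real libraries differ in spread, so that run does not bear on the calls given here.

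Named genes were 26 chosen genes, the 12 largest changes in each direction among called genes with no overlap between groups and a mean level above the median, leaving out unnamed gene models, receptor segments, pseudogenes, Y-linked genes and the like, the 8 largest in each direction of the genotype difference by the same rule, and up to 4 called members per direction of each list, or up to 2 uncalled ones. The genes, lists and rule were chosen with earlier results of these data known. Alternatives covered scaling, filters, pseudocounts, variance prior, library weights, replicate number, the samples fitted and voom. A few genes that the rule names are not reported here.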

Additional observations from a re-analysis of the deposited data

Results flagged for a closer look

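A difference between genotypes in the contrast of tumor and spleen, tested within limma as an interaction, flagged 7 genes. The log2 difference was -2.929 for Nfil3, -2.917 for Slc16a3, -2.62 for Tpi1 and -2.295 for Ctla4, so that tumor and spleen differed less in VHL-deficient than in WT cells, with per-library values given in the report. Bnip3l had a log2 difference of 1.534, with a larger difference in VHL-deficient cells. Tubb6, a beta-tubulin gene, stood at 1622 and 1476 in VHL-deficient tumor and 103 and 139 in VHL-deficient spleen, and at 744 and 1126 in WT tumor and 11.1 and 9.43 in WT spleen, a log2 difference of -2.668 (log2 difference -2.67, SE 0.42, adjusted p = 0.0159). Prelid2 stood at 513 and 518 in VHL-deficient tumor and 199 and 151 in VHL-deficient spleen, and at 72.0 and 136 in WT tumor and 5.57 and 2.10 in WT spleen, a log2 difference of -2.906 (log2 difference -2.91, SE 0.53, adjusted p = 0.0445). Of 21 alternatives, the call was made in 16 for Nfil3, 15 for Slc16a3, 14 for Tubb6, 13 for Tpi1, 10 for Prelid2 and 7 each for Bnip3l and Ctla4. No sign changed in any of them.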

How the results depend on the processing

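Of the 167 named genes called between VHL-deficient tumor and spleen, 105 stayed called in all 22 alternatives and none changed sign, while 10 of 21 uncalled ones were called in some alternative. Library weights gave 3494 VHL-deficient calls, 2210 higher and 1284 lower. In WT cells, the scaling without ribosomal RNA and mitochondrial genes gave 1246 higher and 2100 lower, and a fit of the WT groups alone gave 1126 calls, 710 higher and 416 lower, while a fit of the VHL-deficient groups alone gave 3034 calls, 1904 higher and 1130 lower. The genotype difference had 5 calls with a filter of a read in 2 libraries (0 higher), 1 higher with a filter of 50, 11 lower with a pseudocount of 0.5, 5 with a pseudocount of 5 (1 higher, 4 lower), 1 without a variance trend (0 higher, 1 lower), 12 lower with library weights, 1 higher and 14 lower in a fit of the 8 day 7 libraries, 17 (14 lower) without nonTrm library 2 of VHL-deficient tumor, and 2 with voom (0 higher, 2 lower). Without nonTrm library 2 there were 2873 VHL-deficient calls (1847 higher, 1026 lower) and 3980 WT calls. Leaving out 1 of the 8 libraries compared at a time gave 876 to 2242 VHL-deficient calls (620 to 1460 higher, 256 to 782 lower), 1486 to 3004 WT calls (923 to 1849 higher, 537 to 1155 lower) and 0 to 16 calls of the genotype difference (0 to 12 higher, 0 to 11 lower). Where 1 library was left in a group, its spread was taken from the other groups. The cause of these differences was not tested. With the replicate number as a block, 2009 genes were called in VHL-deficient cells, 2770 in WT cells and 4 for the genotype difference (1 higher, 3 lower). Deviations of same-numbered libraries had correlations over genes of -0.0109 between VHL-deficient tumor and spleen and of -0.0953 to 0.118 over all 6 pairs of these groups. With 2 numbers per group and no label that ties them, the samples were taken to share only a number. The deposited values carry an offset of 1 and are not listed as counts. Whole reads were recovered from them and entered voom, but the planned count tests, edgeR and DESeq2, were not run. At 3375558 to 8744385 reads, genes with a few reads in a group have wide counting intervals.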

Other observations

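Left out by the naming rule, which asks for a mean level above the median and skips unnamed gene models, 3 further genes passed the test of a genotype difference and were named here after their values were seen. Tmem119 stood at 156 and 114 scaled counts in VHL-deficient tumor and had no read in VHL-deficient spleen, WT tumor or WT spleen, and the call was made in 3 of 21 alternatives. Nid1, which encodes the basement membrane protein nidogen, stood at 67.6 and 58.3 in VHL-deficient tumor and 0 and 2.46 in VHL-deficient spleen, and at 2.18 and 0 in WT tumor and 2.78 and 5.24 in WT spleen, with the call made in 10 of 21 alternatives. D630039A03Rik stood at 230.0 and 397 in VHL-deficient tumor and 203 and 200.2 in VHL-deficient spleen, and at 132 and 146 in WT tumor and 13.9 and 13.6 in WT spleen, with the call made in 6 of 21 alternatives.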
